A study of Homo sapiens with 6 samples.

Results

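The regions described here are places where tagged GSX2 was found far from any protein-coding gene. They were chosen by the peaks of these same lists: a merged region had to hold peaks of at least 2 of the 3 replicates, and its median summit had to lie over 250 kb from the nearest protein-coding gene span and over 1 kb from the end of every annotated gene. The rule was met by 782 regions, of 7105 regions with peaks of at least 2 replicates and 15743 merged regions in all. A gap between neighbouring protein-coding spans that contains such positions is called a desert below and is written by its flanking genes. The label was checked by position alone, since peak lists hold no expression values.

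The chromatin came from H9, an established human embryonic stem cell line, differentiated for 10 days toward progenitors resembling those of the lateral ganglionic eminence, the ventral forebrain zone that forms striatal neurons. All cells carried TRE3G 2xFLAG-GSX2 WT, a doxycycline-driven transgene for wild-type GSX2 with a FLAG tag, and received doxycycline at 100 ng/mL for 12 hours from day 10. The 3 ChIP replicates, taken at day 10.5 with the M2 FLAG antibody, form the only group. The 3 input libraries have no values here, so no contrast between conditions exists. No source used here says whether the line is 1 clone. On chromosomes 1 to 22 and X the replicates contributed 9859, 7471 and 9122 peaks, at unknown sequencing depth, so a missing peak can reflect depth. The labels do not say that replicates were separate cultures, and the SDs below may be partly technical.

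GSX2 is a homeodomain protein, a class that binds short AT-rich words with a TAAT core. Gene deserts are long stretches without protein-coding genes, and some that flank developmental regulators hold enhancers acting over long distances. Many lncRNA genes, long transcripts with no known protein, also lie in them. The nearest gene is used below as an address and not as a target, because binding alone does not name the gene an element acts on.

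Peak sequences were not available for most of these regions. RefSeq start-site windows (GRCh38.p14, each 250 bases before to 50 after a start) were compared with most of the desert regions. A part of the 782, chosen by chromosome, was left out of this comparison. Among the rest the windows overlapped 2 regions, at transcript starts of lncRNA genes. One window of each is shown, because these are the stretches of bound desert sequence that were read. The first lies wholly inside a region of 97464353 to 97464854 in RMST, an lncRNA gene of neural progenitors (chr12:97464441-97464740, plus strand). The second covers part of a region in the desert next to NR2F1 and belongs to the uncharacterised gene LOC105379083 (chr5:93162438-93162737, minus strand). Capitals mark TAAT or its reverse complement ATTA.
RMST: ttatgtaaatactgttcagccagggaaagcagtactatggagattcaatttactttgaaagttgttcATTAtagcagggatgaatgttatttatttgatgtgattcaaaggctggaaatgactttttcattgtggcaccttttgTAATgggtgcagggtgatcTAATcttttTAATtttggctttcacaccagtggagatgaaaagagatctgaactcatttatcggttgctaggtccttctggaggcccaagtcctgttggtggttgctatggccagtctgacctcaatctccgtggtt
LOC105379083: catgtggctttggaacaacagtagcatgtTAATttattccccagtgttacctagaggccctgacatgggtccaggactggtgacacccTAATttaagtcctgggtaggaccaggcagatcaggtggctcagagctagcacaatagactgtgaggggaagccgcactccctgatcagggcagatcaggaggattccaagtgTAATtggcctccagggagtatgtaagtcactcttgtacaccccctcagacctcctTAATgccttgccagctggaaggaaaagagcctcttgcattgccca

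The RMST window held 4 TAAT cores on the 2 strands together, and the median summit fell on its base 144. Of these, 3 began 1, 20 and 29 bases after the summit, and the other began 76 bases before it. The region was among the weaker ones, with fold enrichment of 6.13 in replicate 1 and 5.73 in replicate 2 and no peak in replicate 3. The LOC105379083 window also held 4 cores, 3 of them in the 208 bases that lie inside the region, and the summit stood 64 bases before the window's first base. Its fold enrichment was 4.52, 9.91 and 4.73 in replicates 1, 2 and 3, so replicate 2 stood above the others. Neither window held the 6-base word TAATTA. Of 35116 such windows in the RefSeq table, 50.2% held at least 1 TAAT on either strand, 12.2% held 4 or more and 4.84% held TAATTA. Each TAATTA also counts as 2 matches, because it holds both TAAT and ATTA. These matches are letters in a window and do not mark bound sites.

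The strength of GSX2 regions in deserts was close to that of regions elsewhere. Fold enrichment, the authors' ratio of ChIP signal over local background at the summit, had medians of 8.21, 8.24 and 8.33 over the desert regions in replicates 1, 2 and 3. The medians over all other regions of at least 2 replicates were 8.28, 8.42 and 8.27. The difference, desert minus other, was -0.0616, -0.178 and 0.068, and averaged -0.0571 ± 0.123 (SD, n = 3). It was smaller than its spread between replicates and did not keep 1 direction. Among regions of all 3 replicates it was -0.287 ± 0.182 (SD, n = 3). Because these values come from the lists that chose the regions, they are given with no test.

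Differences appeared when the other regions were divided by location. Against regions outside coding genes but within 250 kb of one, the desert median was lower in each replicate, with a difference of -0.219 ± 0.0815 (SD, n = 3). Regions within 1 kb of a gene end had a median 0.496 ± 0.0135 (SD, n = 3) below the desert regions, again in each replicate. Against regions inside coding genes the difference changed sign between replicates, with a mean of -0.081 ± 0.16 (SD, n = 3). Peak width was close to that elsewhere but slightly lower in each replicate. Median widths were 302, 234 and 242 bp in deserts, against 308, 239 and 248 bp over all others. The means of these medians were 259 ± 37.2 bp and 265 ± 37.5 bp (SD, n = 3). Both SDs mainly reflect the wider peaks of replicate 1.

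**Figure D1:**
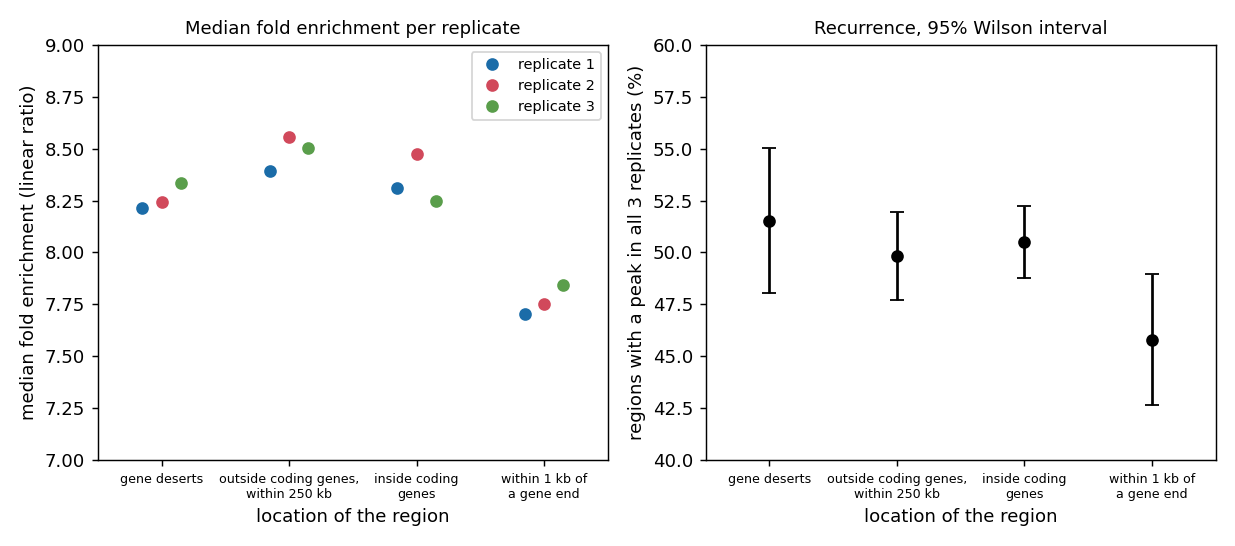
Left, median fold enrichment of regions with peaks of at least 2 replicates, 1 point per replicate, by location (the axis starts at 7). Right, share of the same regions with a peak in all 3 replicates, with 95% Wilson intervals (the axis starts at 40%); desert regions sit at 51.5%, and regions within 1 kb of a gene end at 45.8%.

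Recurrence in deserts was near the background too. A peak of every replicate was present in 403 of the 782 desert regions (51.5%, 95% Wilson interval 48.0 to 55.0%), against 49.8% over all regions of at least 2 replicates. The threshold of −log10 q of 10 in at least 2 replicates was passed by 380 of them (48.6%, 45.1 to 52.1%), against 49.6% over all regions. Desert positions held 11.8% of regions seen in 1 replicate, 10.6% of those seen in 2 and 11.4% of those seen in 3, with overlapping Wilson intervals. By list, the share of peaks at desert positions averaged 11.3% ± 0.324 (SD, n = 3). Replicate 2, the shortest list, lacked a peak at 160 desert regions, while replicates 1 and 3 lacked one at 107 and 112. All these intervals cover counting error only.

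The strongest sites made up a smaller share of the regions in deserts. Mean fold enrichment exceeded 20 in 9 of the 403 desert regions of 3 replicates (2.23%), against 4.30% of all regions of 3 replicates and 4.56% of those outside deserts. Of the 100 strongest regions of 3 replicates 5 were in deserts, and of the 500 strongest 44 were (8.80%), whereas 11.4% of all 3537 were. The level of 20 was chosen after the values were seen, and no test was made. Within the 403, mean fold enrichment ran from 4.55 to 27.9 with a median of 9.27. Over these regions the replicates correlated with Spearman coefficients of 0.499, 0.544 and 0.540 (pairs 1 and 2, 1 and 3, 2 and 3), as a description across regions that share libraries. The median coefficient of variation between replicates was 19.6%, beside 19.5% over all regions of 3 replicates. Over all 782 regions, the summits of different replicates were a median of 27 bp apart.

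The strongest desert region lay 336.8 kb from NR2F1, an orphan nuclear receptor gene that patterns the forebrain (chromosome 5, 93246161 to 93246650). Its fold enrichment was 31.5, 32.1 and 19.97 in the 3 replicates in order, and the mean was 27.9 ± 6.8 (SD, n = 3). Replicates 1 and 2 nearly coincided and replicate 3 was lower. It ranked 39th among the regions of 3 replicates genome-wide. Its paralogue NR2F2, a factor of the caudal eminence, had a counterpart 483.1 kb away, in the desert ending at ARRDC4 (chromosome 15, 96823131 to 96823684). That region had values of 18.4, 25.9 and 19.8, a mean of 21.4 ± 4.0 (SD, n = 3), with replicate 2 the highest.

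The second and the fourth strongest regions have adhesion genes at their flanks. The region between SLITRK5, a synaptic adhesion gene, and GPC5, a glypican gene (chromosome 13, 89925099 to 89925541), had values of 24.3, 23.7 and 34.5, a mean of 27.5 ± 6.0 (SD, n = 3). Here replicate 3 was the high one. The region was 1473 kb from GPC5 and farther still from SLITRK5. Between CDH8 and CDH11, both type II cadherin genes, a region 789.2 kb from CDH11 (chromosome 16, 64154318 to 64154884) had 31.8, 24.5 and 22.2, a mean of 26.1 ± 5.0 (SD, n = 3).

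A few strong regions were measured nearly alike in all libraries. Between PLA2G4A, a phospholipase gene, and BRINP3, a gene expressed in neurons, the values were 26.6, 27.9 and 26.8 (chromosome 1, 187666151 to 187666818; mean 27.1 ± 0.7, SD, n = 3). Between ZNF608, a zinc finger gene, and GRAMD2B they were 23.2, 24.2 and 24.9 (chromosome 5, 125499798 to 125500458; mean 24.1 ± 0.8, SD, n = 3). Between GALR1, the galanin receptor gene, and SALL3, a zinc finger factor gene, they were 20.5, 20.2 and 18.7 (chromosome 18, 77763762 to 77764247). The SDs of these 3 were 0.69, 0.84 and 0.97.

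In the other 3 of the 10 strongest, replicate 2 was the lowest. NXPH1 encodes a secreted ligand of neurexins, and COXFA4 encodes a mitochondrial protein. Between these genes the values were 25.5, 14.6 and 24.9 (chromosome 7, 10429363 to 10429833). Between GRIN3A, an NMDA receptor subunit gene, and CYLC2 they were 23.5, 15.7 and 23.3 (chromosome 9, 102591895 to 102592351). Between CITED2, a transcriptional coregulator gene, and LOC124901415 they were 28.5, 12.2 and 20.2 (chromosome 6, 140816588 to 140817063), the widest spread of the 10. The SDs of the 10 regions ran from 0.69 to 8.1, and each region overlapped its neighbour in the order of means in its replicate values, whereas PLA2G4A, ZNF608 and GALR1, with small SDs, did not overlap each other.

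**Figure D2:**
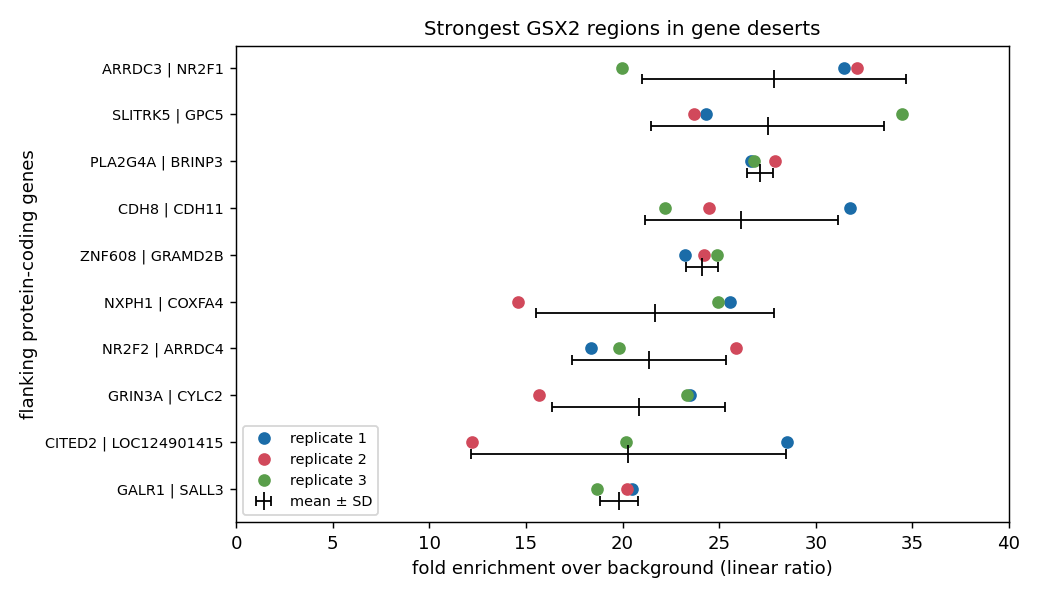
Fold enrichment (linear ratio, horizontal axis) of the 10 strongest desert regions of 3 replicates, with 1 point per replicate and the mean ± SD below it, listed by flanking genes. The means run from 27.9 at ARRDC3 and NR2F1 to 19.8 at GALR1 and SALL3, and the bars overlap between neighbours.

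The distance to the nearest coding gene ran from 250.5 kb to 1975 kb with a median of 481.5 kb. Up to 500 kb away were 413 regions, between 500 and 1000 kb were 284, and over 1000 kb were 85. Strength showed no steady fall with distance. The median fold enrichment was 8.33 ± 0.15, 8.06 ± 0.09 and 8.90 ± 0.50 (mean ± SD of the replicates' medians, n = 3) in these 3 classes. A peak of every replicate was present in 51.6%, 51.1% and 52.9% of them. The farthest region lay 1975 kb from C4orf33 and 2057 kb from PCDH10, a protocadherin gene, and was no weak one, with 13.8, 15.5 and 10.5 in the 3 replicates. The next stood 1963 kb from PIK3C3, a lipid kinase gene (13.8, 9.44 and 11.6). The third stood 1851 kb from SLITRK5 and had values of 5.80 and 7.57 in replicates 1 and 3 only.

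Regions close to the limits of the rule were as follows. Just inside the distance limit were regions 250.5 kb from KCTD8, 250.9 kb from VEPH1 and 251.0 kb from POLR1F, with mean fold enrichment of 10.0, 6.23 and 8.11 over 2 replicates each. Just outside were regions 248.3 kb from RALYL, 248.4 kb from CMC1 and 249.7 kb from TLE4, with means of 9.36, 8.86 and 16.6 over 3 replicates. At the limit on gene ends, members near 1.00, 1.07 and 1.08 kb had FRK, RPS24 and OSR1 as nearest coding genes and means of 6.05, 8.33 and 5.22. Those left out at 0.86, 0.90 and 0.92 kb had NEDD1, POU3F2 and MEIS1 and means of 7.43, 12.0 and 8.31. In all, 30 regions failed the rule on gene ends alone.

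Deserts held GSX2 regions unevenly. The gene table gives 706 deserts, of which 24 contain a stretch over 2 Mb with no annotated gene of any kind, centromeres among them, and these held 3 regions. Of the remaining 682 deserts, 328 held at least 1 region (48.1%) and 354 held none. A single region was found in 158 deserts, 2 to 4 in 123, and 5 or more in 47. These 47 held 299 of the 782 regions (38.2%). Long deserts held more: the median length over 250 kb from a coding gene was 805.3 kb in deserts with a region and 197.6 kb in those without, and across deserts this length and the number of regions had a Spearman coefficient of 0.601, a description over 682 deserts that share 3 libraries. The density was 1.77 regions per Mb, against 2.57 per Mb inside coding genes away from gene ends. The desert length left out 1 kb around gene ends, whereas the coding length was the whole span. Per replicate the ratio of the 2 densities was 0.684, 0.714 and 0.687, a mean of 0.695 ± 0.016 (SD, n = 3). Each region counted also had a peak in another replicate, so the 3 ratios share regions and are not independent.

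**Figure D3:**
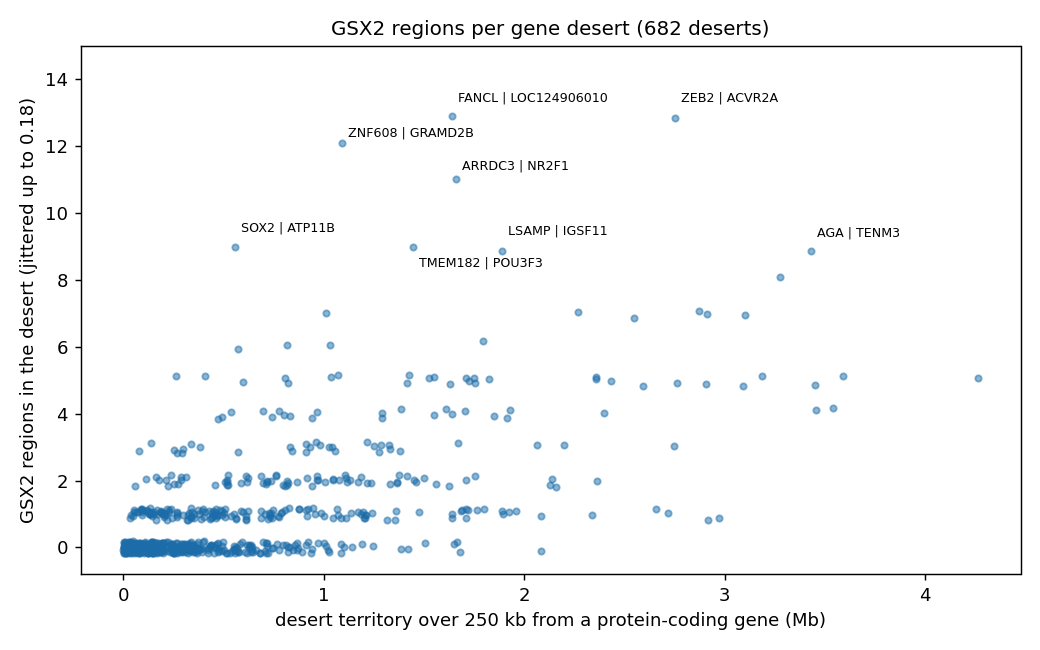
Each point is 1 of 682 deserts: its length over 250 kb from a protein-coding gene (horizontal axis, Mb) and its number of GSX2 regions (vertical axis, jittered). The 8 deserts with most regions are named; SOX2 and ATP11B bound a short one with 9 regions.

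Chromosome 5 carried the most desert regions, 103, followed by chromosome 2 with 96, chromosome 4 with 69, chromosome 3 with 61 and chromosome 6 with 58. Per Mb of desert, chromosome 5 had 2.83 and chromosome 4 had 1.49. Chromosomes 21 and X were lowest, at 0.75 and 0.79 per Mb with 8 and 20 regions. Chromosome 22 was close to chromosome 5, at 2.81 per Mb, on only 8 regions.

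The desert between ZEB2 and ACVR2A on chromosome 2 held 13 regions over 2269 kb. ZEB2 encodes a repressor needed by migrating interneurons of the medial eminence, and ACVR2A an activin receptor. Of these, 6 stood in all 3 replicates, and by distance 5 were nearer to ZEB2 and 8 to ACVR2A. The strongest, 1163 kb from ZEB2, had 18.7, 15.8 and 20.7. A second pair of regions lay near the other edge, 394.3 and 374.8 kb from ACVR2A, with means of 13.8 ± 1.1 and 9.51 ± 1.45 (SD, n = 3). The weakest had a mean of 5.70 over 2 replicates.

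Another 13 regions lay between FANCL, a ubiquitin ligase gene of the Fanconi pathway, and the predicted gene LOC124906010, also on chromosome 2. Inside LINC01122, a lncRNA gene of 543.0 kb, stood 8 of the 13. Peaks of all 3 replicates were present in 4 of the 13. The strongest had 16.3, 17.6 and 16.3 (mean 16.7 ± 0.7, SD, n = 3) and was inside LINC01122, 376.5 kb from FANCL. The 4 regions nearer to LOC124906010 all lacked a peak of replicate 2.

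The 12 regions between ZNF608 and GRAMD2B were more often complete, with 8 in all 3 replicates. Besides the strong one, the region 256.7 kb from ZNF608 reached a mean of 14.7 ± 5.6 (SD, n = 3), and its values of 9.15, 14.6 and 20.4 differed by over a factor of 2 between replicates. The other 10 had means of 5.80 to 10.1. The predicted lncRNA gene LOC124901056 covered 6 of the 12.

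In the desert from ARRDC3, an arrestin-domain gene, to NR2F1, 11 regions spread over 1532 kb, and 6 had all replicates. Apart from the strongest site, the highest mean, 13.8 ± 4.0 (SD, n = 2), belonged to a region 979.1 kb from ARRDC3 that had no peak in replicate 1. The region shown above at LOC105379083 is a weaker neighbour of the NR2F1 site, at 420.4 kb from NR2F1. The 7 regions nearer to NR2F1 included 5 of all 3 replicates.

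The desert between SOX2, which encodes an HMG-box factor of neural progenitors, and ATP11B, a phospholipid flippase gene, held 9 regions on 556.0 kb of territory over 250 kb from a coding gene, or 16.2 per Mb, and they lay within 360.4 kb. They formed 2 groups. The first 5 stood 428.8 to 613.0 kb from SOX2, and their best region had 13.2, 9.99 and 11.7 (mean 11.6 ± 1.6, SD, n = 3). The other 4 stood 289.9 to 302.2 kb from ATP11B, and 3 of these, each with peaks of all 3 replicates, lay inside the lncRNA gene LINC01995. The best of those had 18.3, 17.6 and 17.8 (mean 17.9 ± 0.4, SD, n = 3). Its neighbours in the gene had means of 9.53 and 7.85 with wider spread.

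**Figure D4:**
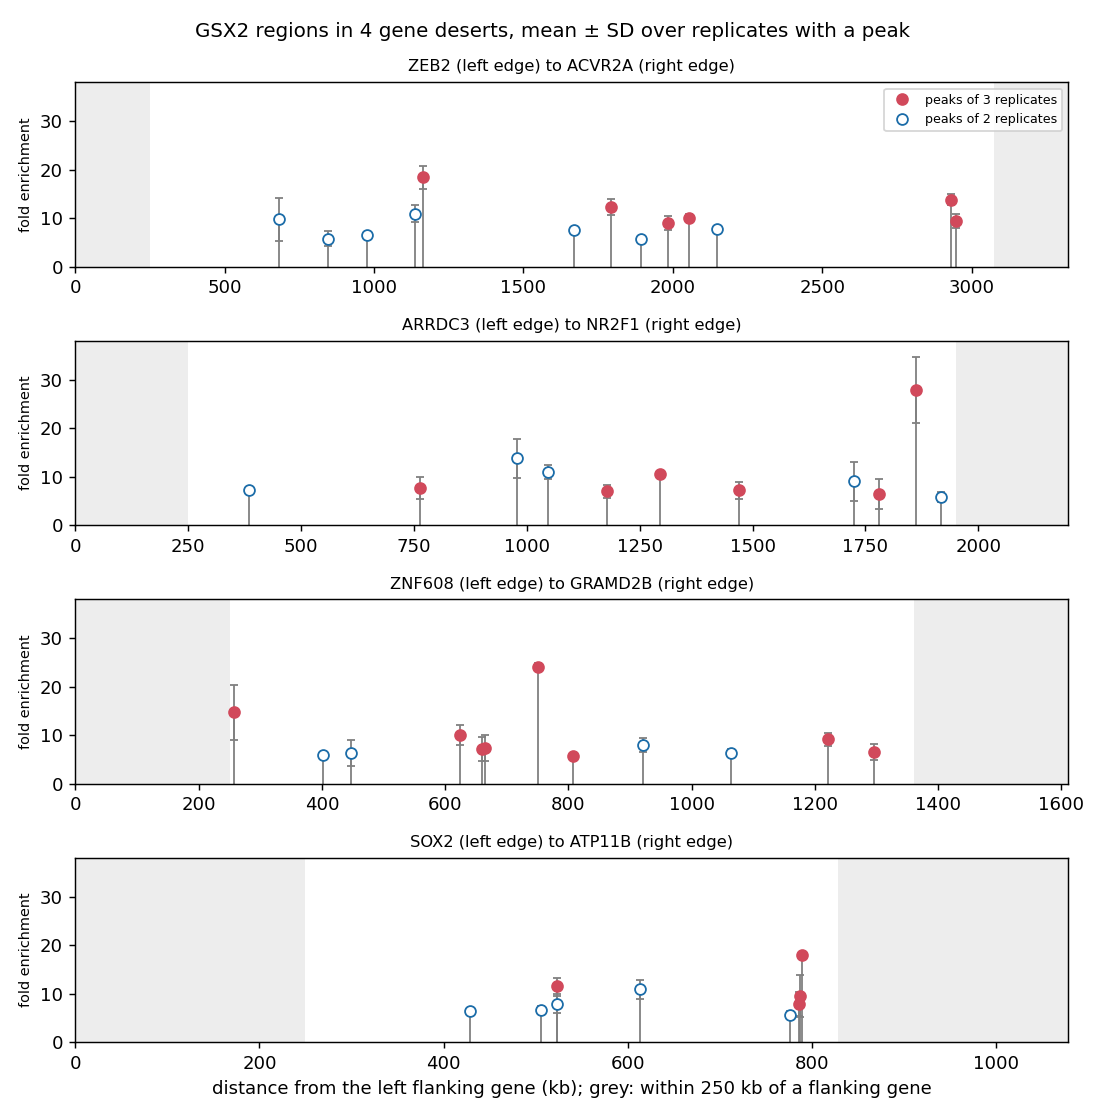
Mean fold enrichment (vertical axis, bars ± SD over the replicates with a peak) of the regions in 4 deserts against distance from the left flanking gene (kb), with filled points for 3 replicates and open points for 2. One region stands above the rest in the NR2F1 desert (27.9) and in the ZNF608 desert (24.1), while the ZEB2 desert holds regions along most of its length.

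A further 3 deserts held 9 regions each. Between AGA, a lysosomal enzyme gene, and TENM3, a teneurin gene of synaptic wiring, 6 of the 9 had all replicates, and the strongest had 20.6, 14.5 and 15.4 at 677.2 kb from TENM3. From TMEM182 to POU3F3, a POU factor gene of neural progenitors, no mean exceeded 9.55, and 4 had all replicates. From LSAMP to IGSF11, both immunoglobulin-type adhesion genes, the means stayed between 6.56 and 8.45, the narrowest range of these deserts. A long desert was not always occupied: of 149 deserts with over 1 Mb of such territory, 17 held no region.

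Gene lists were used to describe which genes border the occupied deserts. A list member could be nearest to a region only if it borders a desert, as 1254 coding genes do, and 421 of these (33.6%) were nearest to at least 1 region. Long deserts raise the chance, so each list's territory, the median desert length assigned to its bordering genes, is given beside its share. Over all bordering genes that length was 237.2 kb, and over the 421 it was 489.9 kb. The part of desert length in the lists' shares was not tested.

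Among ventral forebrain transcription factors 8 of 17 bordering genes (47.1%) were nearest to a region, with a territory of 348.1 kb. NR2F1, NR2F2 and ZEB2 had the strongest, with 7, 5 and 5 regions. The 24 regions of this list had a median mean fold enrichment of 8.84, beside 8.07 over all desert regions.

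Neural progenitor transcription factors had the higher share, 11 of 16 (68.8%, territory 401.4 kb), but modest sites, with a median of 7.07 over 30 regions. The strongest belonged to GLI3, a Hedgehog pathway factor gene (15.3, 13.3 and 11.9 at 258.0 kb). SOX2 followed with 5 regions, 4 in the desert toward ATP11B and 1 in the desert toward DNAJC19. The best of them was described above. DACH1, a nuclear corepressor gene, had 3, the best with 11.2, 10.6 and 9.72 at 314.4 kb. ZIC1, a zinc finger factor of the dorsal neural tube, also had 3, led by 9.35, 10.7 and 11.3 at 529.5 kb.

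Of the pallial and caudal patterning factors 5 of 10 (50%, territory 151.4 kb) were nearest to a region, namely IRX1, IRX2, IRX5, EN1 and NKX6-1. IRX5, an Iroquois homeobox gene, had 1 strong region (20.3, 18.9 and 14.2 at 275.9 kb). IRX1, its relative on chromosome 5, had 5 regions, each with peaks of all 3 replicates, led by 9.35, 13.5 and 12.3 at 397.5 kb. IRX2 (12.2 and 9.17 in replicates 1 and 3) and NKX6-1, a ventral hindbrain and spinal cord factor (11.1, 8.85 and 9.12), completed the 4 strongest.

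The adhesion lists bordered the longest deserts. Cadherins and protocadherins had 14 of 21 (66.7%) on a territory of 966.9 kb, and 39 regions with a median of 8.01. After CDH11, the strongest regions were those of PCDH18 (15.4, 17.1 and 18.1 at 1118 kb), PCDH20 (9.18, 20.02 and 12.1 at 548.2 kb) and CDH8 (13.7, 11.9 and 11.3 at 741.1 kb). Leucine-rich repeat and synaptic adhesion genes had 12 of 23 (52.2%) on 1042 kb, and a median of 7.07. TENM3 led this list, followed by LRRC4C, a netrin-G ligand gene, whose values of 12.0, 17.6 and 4.79 disagreed widely. FLRT2 (8.81, 11.1 and 12.0) and NCAM2 (12.1, 8.39 and 10.3) came next.

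Axon guidance genes had 8 of 19 (42.1%, territory 485.1 kb). The ephrin receptor gene EPHA7 had a region of 14.6, 15.0 and 18.9 at 646.8 kb, and SEMA5A, a semaphorin gene, one of 20.4, 13.7 and 14.0 at 513.4 kb. UNC5D, a netrin receptor gene (14.1, 16.1 and 10.8), and EPHA3 (9.14, 14.5 and 16.3) followed. EFNA5, an ephrin ligand gene, had the most regions of the list, 6, and was singled out after its count was seen.

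Signalling genes were fewer, with 4 of 20 (20%) on a short territory of 77.5 kb: FGF9 (10.3, 12.5 and 12.1), SPRY2 (12.3 and 7.45 in replicates 1 and 2), SPRY1 (9.95, 8.72 and 5.40) and JAG1 (5.91, 4.28 and 8.06). Neurotransmitter receptor and channel genes had 4 of 17 (23.5%, territory 289.2 kb), namely HTR2C, GRIK2, GRM7 and CHRM3. HTR2C, a serotonin receptor gene, had the strongest, with 7.64, 15.0 and 8.44. Of the 24 ribosomal protein genes listed, which are a part of that family, RPLP1 and RPS24 border a desert, and both were nearest to a region, with best means of 6.63 ± 2.20 (n = 3) and 9.26 ± 2.45 (SD, n = 2). Outside that list, and looked up after the values were seen, RPS29 also borders a desert and was nearest to 2 regions, while RPS23 and RPL38 border deserts and were nearest to none. In all, 167 of the 782 regions (21.4%) had a listed gene as the nearest. The share of desert territory assigned to listed genes was not computed, so this percentage has no background to be read against.

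**Figure D5:**
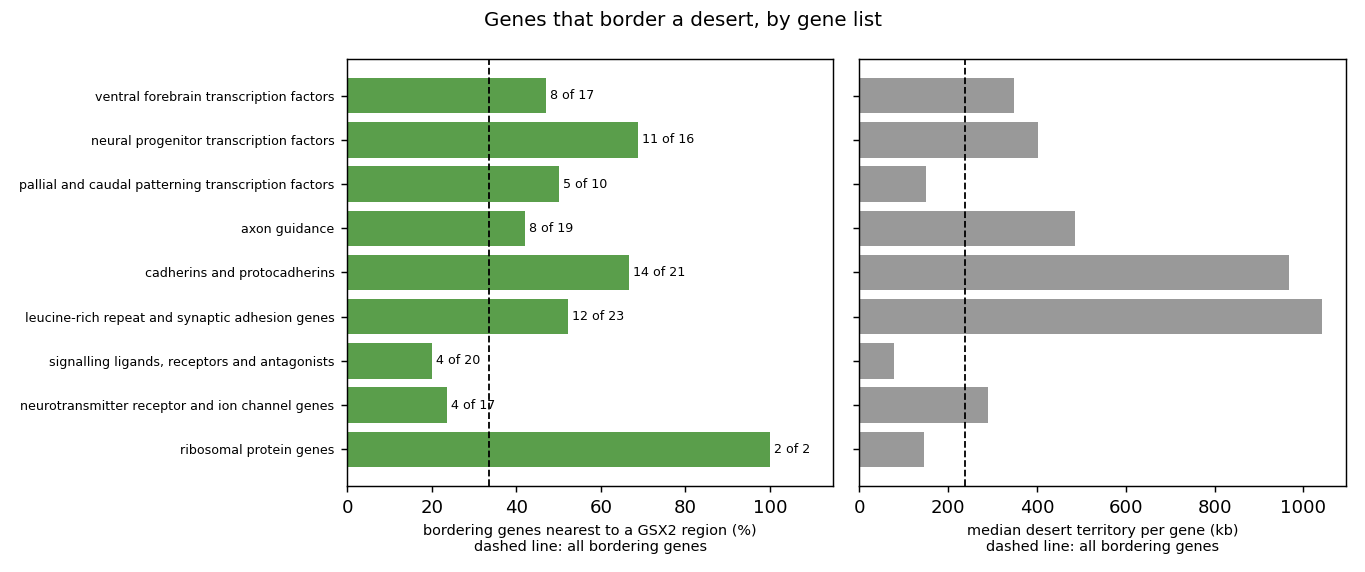
Left, percent of the bordering genes of each list that were nearest to at least 1 desert region, with the counts, against 33.6% of all bordering genes (dashed). Right, median desert length assigned to those genes (kb) against 237.2 kb over all (dashed); the 2 adhesion lists stand highest on the right, and ribosomal genes rest on 2 genes.

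Noncoding genes gave the desert regions another address. Of the 782 regions, 234 lay inside a noncoding gene span (29.9%, 95% Wilson interval 26.8 to 33.2%), 229 of them inside a lncRNA gene, and 548 lay outside every annotated gene. Noncoding spans covered 25.8% of the desert territory. The interval treats regions as independent, though LINC01122 alone held 8, and an excess over the territory share was not tested. The regions were spread over 191 noncoding genes, of which 11 held 3 or more. After LINC01122 and LOC124901056, the genes LINC03007 on chromosome 7, LOC124902439 on chromosome 10 and RMST had 5 each. EGFEM1P, a transcribed pseudogene between GOLIM4 and MECOM, held 4, the strongest with 14.54, 18.4 and 14.8 (mean 15.93 ± 2.15, SD, n = 3). The median distance to the next desert region was 169.3 kb, and 177 regions (22.6%) had one within 50 kb. The same values were not computed for regions elsewhere, so they do not show whether desert regions cluster more.

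MicroRNA genes stood within 50 kb of 25 desert regions, 21 genes in all. The share of other GSX2 regions this near to a microRNA gene was not computed, so these counts serve as addresses only. RMST hosts MIR1251 and MIR135A2, and the lncRNA gene MIR99AHG hosts MIR99A, MIRLET7C and MIR125B2, a cluster of conserved microRNAs. Mature forms from these 2 host genes are shown, because regions inside the hosts lie beside them, with the seed, bases 2 to 8, in capitals (RefSeq, GRCh38.p14).
hsa-miR-1251-5p: aCUCUAGCugccaaaggcgcu
hsa-miR-135a-2-3p: aUGUAGGGauggaagccaugaa
hsa-miR-99a-5p: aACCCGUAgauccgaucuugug
hsa-let-7c-5p: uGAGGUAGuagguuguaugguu
hsa-miR-125b-5p: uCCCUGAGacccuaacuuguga

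RefSeq had mature sequences for 20 of the 21 genes, 26 in all, and no 2 of them shared a seed. RMST spans 97462804 to 97565035 on chromosome 12, in the desert between NEDD1, a centrosome gene, and TMPO, a nuclear envelope gene. Its 5 regions fell at both ends of the gene. Near its start, 3 stood at 97464584, 97465511 and 97466627, and the strongest of them had 9.07, 9.35 and 15.5 in the 3 replicates (mean 11.3 ± 3.6, SD, n = 3), 25.3 kb from MIR1251. The other two were 21.0 and 2.71 kb from MIR135A2, with means of 7.23 ± 3.46 (SD, n = 2) and 6.53 ± 1.41 (SD, n = 3). Only 2 of the 5 had peaks in every replicate. In MIR99AHG a single region of 9.17 and 8.10 in replicates 1 and 3, with no peak in replicate 2, lay 13.7 kb from MIR125B2, 36.6 kb from MIRLET7C and 37.3 kb from MIR99A.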

How the data were processed

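The submitters' processing notes name hg38 as the build and list MACS3, Bowtie2, Trim Galore, deepTools and SAMtools as tools. Versions, settings and whether input served as control are not given there. For each replicate the authors deposited 1 peak list. In the deposited lists, fold enrichment is a linear ratio, significance is −log10 p and −log10 q, and the score was not used. No peak had a −log10 q under 3.00. The lists give no counts, so depth is unknown.

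Several summits of 1 interval were reduced to that of highest fold enrichment. Peaks overlapping by at least 1 bp were merged (Python 3.11.15, pandas 2.3.3); peaks on other contigs (77, 64 and 82) were left out. Genes came from RefSeq (GRCh38.p14, the build hg38), used by span without strand. Genes on alternate scaffolds carry scaffold positions there (GSTT1 is listed at 270308 on chromosome 22), which can misplace deserts near chromosome starts, where 16 regions lie below 6 Mb. No genome was used, so peak sequences and motifs at summits, planned for this case only, were not analysed. Merging and the rule were tested on simulated peaks with the same position and width in each list. Partial overlaps, differing summits and several summits per interval were not simulated.

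Regions, lists and named genes were chosen with earlier results of these data known. Named were the 10 strongest regions of 3 replicates, the 8 deserts with most regions, up to 4 genes per list, 3 regions on each side of both limits and the 3 farthest. A few of the genes so chosen are left out of the text. The microRNA, lncRNA and start-site windows were added after the data were seen. With 1 group, no test between conditions was possible. Wilson intervals (95%) cover counting error. Alternatives were other distance limits, stricter peaks, another overlap, another position, a 5 kb gene-end limit and leaving out each replicate.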

Additional observations from a re-analysis of the deposited data

How the results depend on the processing

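The number of regions depended on the rule. It was 1411 with a limit of 100 kb and 369 with 500 kb, 380 with peaks of −log10 q of at least 10 and 403 with peaks of all 3 replicates, against 782. Occupied deserts numbered 619, 153 and 216 under the first 3 of these, against 330, and nearest genes 780, 208, 268 and 280 under the 4, against 421. Leaving out 1 replicate, so that both others had to hold a peak, gave 509 to 562 regions, 267 to 275 occupied deserts and 323 to 344 nearest genes, the fewest regions without replicate 1 (509) and without replicate 3 (515). The difference in median fold enrichment, desert minus other, was -0.287 with peaks of all 3 replicates, ranged from -0.189 (without replicate 3) to 0.0353 (without replicate 2) when 1 replicate was left out, and was 0.0525 with stricter peaks. The share with a peak in every replicate was 49.8% to 51.9% in all settings that allow it. The other settings (overlap of 50%, midpoint, 5 kb from gene ends) gave 690 to 781 regions. No paired analysis was possible because the input replicates, which share numbers with the ChIP replicates, have no values here. A missing peak may reflect depth, which is unknown.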
